A study of Rattus norvegicus with 4 samples.

Results

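The genes described here encode the nuclear-coded subunits of the mitochondrial respiratory chain and ATP synthase, in rat aortic smooth muscle cells given the cytokine interleukin-1 beta (IL-1b). They were chosen by a rule on names, with earlier results of these data known. The rule took the probe sets annotated with exactly 1 gene symbol that begins with Nduf, Uqcr, Atp5, Cox4, Cox5, Cox6, Cox7 or Cox8, or that is Sdha, Sdhb, Sdhc, Sdhd, Cyc1 or Cycs. This gave 97 probe sets for 87 genes, out of 31099 probe sets on the array and 14217 genes with a probe set of their own. The name rule also takes in 6 tested complex I assembly factors (Ndufaf), the ATP synthase inhibitor Atp5if1 and the pseudogene Cox6c-ps1, which are counted separately where they matter. A further 9 probe sets carry several symbols of which 1 fits the rule, among them those of Cycs, Cox7a2 and Uqcrb, and were not used. The subunits encoded by mitochondrial DNA are outside the rule and were not analysed here.

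The cells were smooth muscle of the aorta from Sprague-Dawley rats, cultured for 5 days with 10% serum and then for 3 days without serum. In the treated group, 2 samples received IL-1b at 2.5 ng/mL for 24 hours. In the control group, 2 samples received the vehicle, 0.1% bovine serum albumin (BSA), for the same 24 hours. Each sample of total RNA was read on its own Affymetrix rat array, and the labels do not say whether replicates came from separate animals or cultures, so the replicate spread that enters the p-values may be technical. With 2 arrays a group, that spread is also drawn toward the spread of other probe sets of like intensity, by limma's prior.

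The respiratory chain passes electrons from NADH (complex I) and succinate (complex II) through coenzyme Q to complex III, then by cytochrome c to complex IV, which reduces oxygen to water. Complexes I, III and IV pump protons across the inner mitochondrial membrane as electrons pass, and complex V, the ATP synthase, lets protons back to make ATP. Vascular smooth muscle also relies strongly on glycolysis. Most subunits are nuclear genes whose products are imported into mitochondria, and transcription factors such as NRF1, GABP and ERR alpha are known to bind many of their promoters.

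Values are linear intensities of probe sets, and changes are log2 fold changes, IL-1b minus vehicle, on the scale of log2(intensity + 5.49). Different probe sets bind with different strength, so a level is compared only with the same probe set on another array. The IL-1b arrays differed from each other more than the vehicle arrays did. The correlation over 18625 probe sets was 0.912 for the IL-1b pair and 0.972 for the vehicle pair. IL-1b replicate 1 stood apart in its hybridisation controls, which read 3.53 times the vehicle mean, against 0.957 to 1.03 times on the other 3 arrays. Its background, taken from bacterial control probe sets, was 76.7, against 18.8 on IL-1b replicate 2 and 29.4 and 26.9 on vehicle replicates 1 and 2. The respiratory chain probe sets are bright, and 84 and 94 of 97 were above background on the IL-1b arrays, against 89 and 88 on the vehicle arrays.

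The labelled cell type is smooth muscle, and 7 of its 9 markers were above background on every array. On IL-1b replicate 1, Myocd (70.9) and the brightest probe set of Synpo2 (61.5) fell below the background of 76.7. Summed over 9 smooth muscle markers, the intensity was 11792 and 8801 in IL-1b samples, against 33282 and 33788 in vehicle samples, and 8 of the 9 were lower under IL-1b by the test. Of 7 endothelial markers with a probe set, 3, Pecam1 among them, were below background on all arrays, and 1, Flt1, was above it on all. Of the 3 tested, 0 were called. Flt1 read 268 and 283 in IL-1b samples, against 189 and 148 in vehicle samples (log2 0.70, limma adjusted p = 0.097). Its dimmer probe sets gave 1.25 (limma adjusted p = 0.033) and 0.72 (adjusted p = 0.46). The endothelial list summed to 526 and 400.0 in IL-1b samples, against 316 and 321 in vehicle samples. The list for macrophages and other leukocytes had 2 tested members with 0 called, and summed to 1058 and 1077 in IL-1b samples, against 767 and 666 in vehicle samples. Most of that sum was Cd14, with 796 and 950 in IL-1b samples, against 616 and 578 in vehicle samples (limma adjusted p = 0.072). Csf1r read lower (16.7 and 28.8, against 55.5 and 49.8) and Cd68 higher (40.2 and 32.5, against 10.8 and 5.55), both too dim to test. Of 5 tested fibroblast markers, 2 were higher under IL-1b, and that list summed to 1510 and 1999 in IL-1b samples, against 909 and 865 in vehicle samples. The part of these marker changes in the results below was not tested. In RNA from a whole culture, fewer cells of a type and less RNA per cell cannot be told apart.

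Respiratory chain transcripts differed little between IL-1b and vehicle. Of 80 genes bright enough to test, 1 was higher (Ndufa5, of complex I), 0 were lower and 79 did not pass the threshold of 0.05 on limma's p adjusted over all probe sets tested, while 9 had an unadjusted p under 0.05, as had 2990 of all 10000 genes. That is 1.25% of the members, where 15.3% of the 10000 genes tested on the array were called (7.19% higher and 8.13% lower), and 13.4% of probe sets. Among the 3678 genes at least as bright as the members' 10th percentile, 21.9% were called. The other 7 genes were too dim to test and are isoforms of complex IV subunits, described below.

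The fitted changes of the 80 genes had a median of 0.03, against -0.01 over all 10000 genes and -0.04 over the bright ones. They lay between -0.48 and 1.18, with 47 above 0 and 33 below. Both IL-1b arrays lay above both vehicle arrays for 21 members and below them for 22, where 61.3% of all genes had groups that did not overlap (29.4% above and 31.8% below). A change of less than 0.5 in either direction was fitted to 76 of them (95%), against 60.5% of all genes and 68.1% of the bright genes. A change of over 1, which is a doubling or a halving, was fitted to 1 of them, Ndufb8 (1.18, and 0.72 without IL-1b replicate 1), and to 16.3% of all genes and 12.5% of the bright genes. The 95% interval of the change stayed within 2-fold in both directions for 73 of the 80 (91.2%), against 49.0% of all genes and 71.6% of the bright genes. It stayed within 1.5-fold for 47 (58.8%), against 14.9% of all genes and 30.5% of the bright genes. The standard error (SE) of a change had a median of 0.157 for the members and 0.163 for the bright genes. The prior of limma draws each SE toward that of probe sets of like intensity, so this likeness was partly built in. It does not show that the members were measured as precisely as the bright genes. Members share arrays and are transcribed together in many tissues, so these shares are a description and carry no test.

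**Figure D1:**
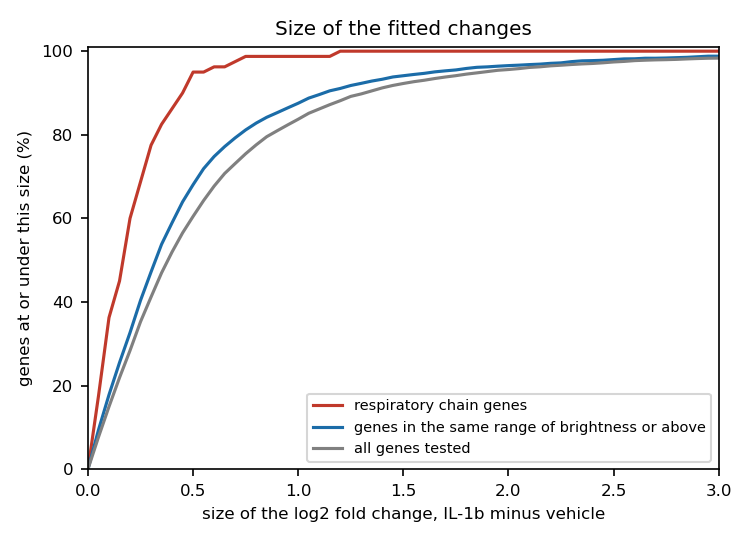
Share of genes (vertical axis, percent) whose fitted log2 fold change between IL-1b and vehicle was at or under the size on the horizontal axis. The red line holds the 80 respiratory chain genes, the blue line the 3678 genes at least as bright as the members' 10th percentile, and the grey line all 10000 genes tested, and 95% of the members are reached at a size of 0.5, against 68.1% and 60.5% of the others.

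The low share of members called depended on which arrays set the spread. With IL-1b replicate 1 left out, 8 members were higher and 16 lower, which is 30.0% of the members, while 32.9% of all genes were called. With IL-1b replicate 2 left out, 26 were higher and 15 lower, or 51.2% of the members against 49.96% of all genes. In both of these fits the spread comes from the vehicle pair alone, which lay closer together. Their shares are set beside all genes only, and not beside the bright genes as above. The median difference between replicates of a member was 0.187 between the IL-1b arrays and 0.056 between the vehicle arrays. With a vehicle array left out, 0 members (without replicate 1) or 1 (without replicate 2) were called, where 8.89% and 8.24% of all genes were. The members' median change stayed near 0 in both fits with 1 IL-1b array, and was -0.04 when IL-1b replicate 1 was left out and 0.07 when replicate 2 was.

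**Figure D2:**
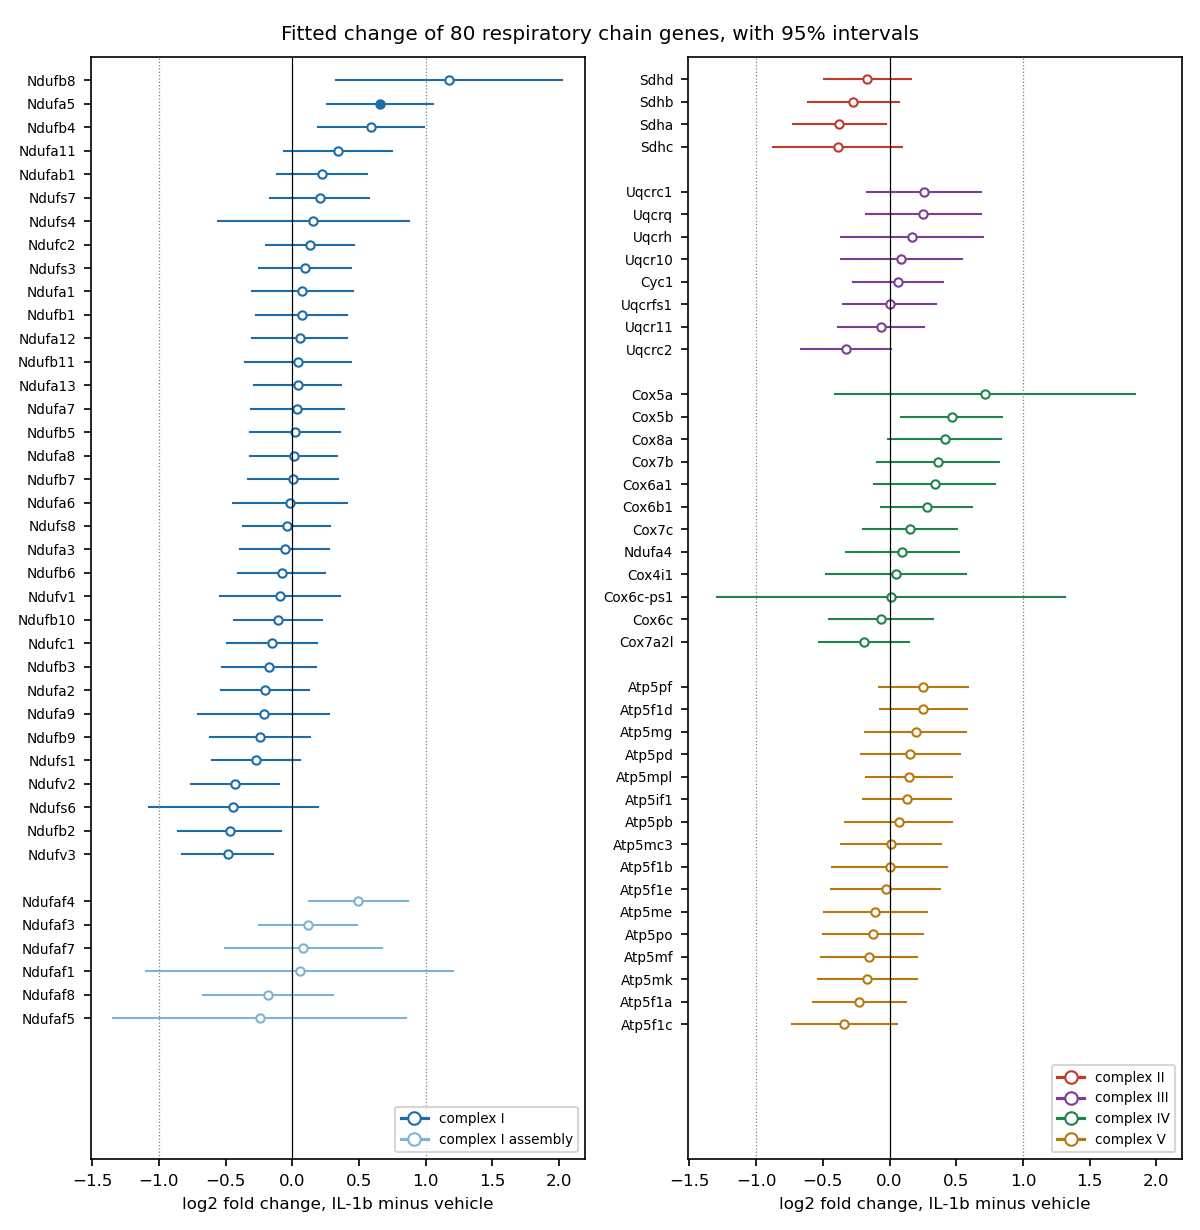
Fitted log2 fold change (horizontal axis, IL-1b minus vehicle) of the 80 tested respiratory chain genes, coloured by complex and sorted within it. Points are the estimates from 2 IL-1b and 2 vehicle arrays, bars are 95% intervals, the filled point is Ndufa5, the 1 gene past the threshold, and dotted lines mark a doubling and a halving.

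Complex I, the NADH dehydrogenase, had 34 tested subunit genes, of which 1 was higher, 0 were lower and 33 did not pass the test. Here and for the other complexes, counts of calls stand against 15.3% of all genes and 21.9% of the bright genes called. The median change of the 34 was 0.01, with 18 above 0 and 16 below. The IL-1b arrays lay wholly above the vehicle arrays for 7 and wholly below for 11, where 29.4% and 31.8% of all genes did so. The medians of the name series were 0.04 for the 12 Ndufa genes, 0.01 for the 11 Ndufb genes, -0.01 for the 2 Ndufc genes, 0.03 for the 6 Ndufs genes and -0.43 for the 3 Ndufv genes.

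Ndufa5 encodes an accessory subunit of the matrix arm of complex I. Its intensity was 896 and 1040 in IL-1b samples, against 669 and 557 in vehicle samples. Both IL-1b values lay above both vehicle values, and the fold was 1.58 (log2 0.66 ± 0.17, SE, n = 2 arrays a group; 95% interval 0.26 to 1.05; limma adjusted p = 0.045). The alternative settings are not independent checks. Those that changed the offset, the filter or the averaging of probe sets gave an estimate of 0.65 to 0.66. Fits without an IL-1b array take their spread from the vehicle pair alone. The adjusted p was close to the threshold, and passed it in 9 of the 14 alternative settings, all of these among them. It did not pass under median centring (0.58), without the intensity trend (0.17), with a robust prior (0.051), without vehicle replicate 1 (0.15) or without vehicle replicate 2 (0.48). The estimate stayed above 0 in all of these, at 0.76 when IL-1b replicate 1 was left out and 0.55 when replicate 2 was.

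The promoter window of Ndufa5 is shown because it is the 1 member called, and that of Ndufv3 because it had the lowest fitted change of the members. The windows run from 250 bases before to 50 bases after the annotated start (RefSeq, build GRCr8), 5′ to 3′ on the gene's strand. Capitals mark matches to the NRF1-type motif GCGCNTGCG on either strand, where matches that overlap on the opposite strands count as 1. The window of Ndufa5 is chr4:53971186-53971485 on the minus strand and that of Ndufv3 is chr20:9613536-9613835 on the plus strand. Each holds 1 match.
Ndufa5: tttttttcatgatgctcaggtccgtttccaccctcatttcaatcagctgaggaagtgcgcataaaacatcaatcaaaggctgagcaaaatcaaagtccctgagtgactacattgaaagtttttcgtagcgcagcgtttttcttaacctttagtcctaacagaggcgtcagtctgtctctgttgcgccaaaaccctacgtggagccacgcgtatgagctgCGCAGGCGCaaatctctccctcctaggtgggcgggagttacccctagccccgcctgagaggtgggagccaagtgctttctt
Ndufv3: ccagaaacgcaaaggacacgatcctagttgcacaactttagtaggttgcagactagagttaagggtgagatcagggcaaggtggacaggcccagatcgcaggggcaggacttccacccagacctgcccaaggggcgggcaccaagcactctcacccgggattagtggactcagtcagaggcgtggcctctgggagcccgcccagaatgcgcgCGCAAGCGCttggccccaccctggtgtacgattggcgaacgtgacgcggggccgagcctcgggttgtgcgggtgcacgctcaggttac

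Other complex I genes with larger fitted changes are named here after their values were seen. Ndufb8, an accessory subunit of the membrane arm, read 424.5 and 222 in IL-1b samples, against 109.5 and 161 in vehicle samples. The groups did not overlap, but the IL-1b values differed nearly 2-fold from each other, and the change of 1.18 ± 0.36 (SE) had an interval of 0.33 to 2.02 and an adjusted p of 0.079 in limma. It was 0.72 without IL-1b replicate 1 (adjusted p = 0.051) and 1.64 without replicate 2 (adjusted p = 8.5e-06). Ndufb4, also of the membrane arm, read 4847 and 3891 in IL-1b samples, against 2942 and 2825 in vehicle samples. Its change was 0.59 ± 0.17 (limma adjusted p = 0.066), and it passed the test after quantile normalization (adjusted p = 0.020). Ndufb2, of the same arm, went the other way without passing the test, with 1298 and 1641 in IL-1b samples, against 1983 and 2064 in vehicle samples (log2 -0.47 ± 0.16, limma adjusted p = 0.11).

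The NADH-binding tip of complex I is built from the products of Ndufv1, which holds the flavin, Ndufv2, an iron-sulphur protein, and Ndufv3, a small accessory subunit, with the iron-sulphur protein Ndufs1 next to them. These 4 genes were put together after their values were seen. Their estimates were below 0, as were 5047 of all 10000, none passed the test, and without IL-1b replicate 1 that of Ndufv1 was 0.15. Ndufv3 read 705 and 782 in IL-1b samples, against 1066 and 1015 in vehicle samples (log2 -0.48, interval -0.83 to -0.14, limma adjusted p = 0.075). A second probe set of Ndufv3 gave -0.43 with an adjusted p of 0.29. Ndufv2 read 1922 and 2025 in IL-1b samples, against 2687 and 2635 in vehicle samples (log2 -0.43, interval -0.76 to -0.10, limma adjusted p = 0.093), and passed the test after quantile normalization (adjusted p = 0.033). For both of these genes each IL-1b array was below each vehicle array. Ndufs1 read 776 and 836 in IL-1b samples, against 971 and 977 in vehicle samples, again without overlap (log2 -0.27, limma adjusted p = 0.27). Ndufv1 read 777 and 1089 in IL-1b samples, against 962 and 999.5 in vehicle samples, and its groups overlapped (log2 -0.09, limma adjusted p = 0.79).

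Ndufs6, a zinc-binding accessory subunit, shows a value set by 1 array. It read 1170 and 2124 in IL-1b samples, against 2082 and 2208 in vehicle samples, so that IL-1b replicate 1 was low and replicate 2 lay among the vehicle values (log2 -0.44 ± 0.27, limma adjusted p = 0.34). Without replicate 1 the change was -0.013. Ndufa1, a membrane-arm subunit and the brightest probe set of the complex, read 5259 and 4655 in IL-1b samples, against 4702 and 4699 in vehicle samples. Its change was 0.07 with an interval of -0.30 to 0.45 (limma adjusted p = 0.80).

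The 6 Ndufaf genes, which encode factors that help assemble complex I and are not part of the finished enzyme, had a median change of 0.07 and 0 calls. Ndufaf4 read 555 and 608 in IL-1b samples, against 417.5 and 403 in vehicle samples. Its groups did not overlap, and its change was 0.50 ± 0.16 (limma adjusted p = 0.090). Ndufaf3, the brightest of them, read 682 and 611 in IL-1b samples, against 623 and 567 in vehicle samples, with overlapping groups (log2 0.12, limma adjusted p = 0.67). The other 4 lay between -0.24 and 0.08 with overlapping groups.

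**Figure D3:**
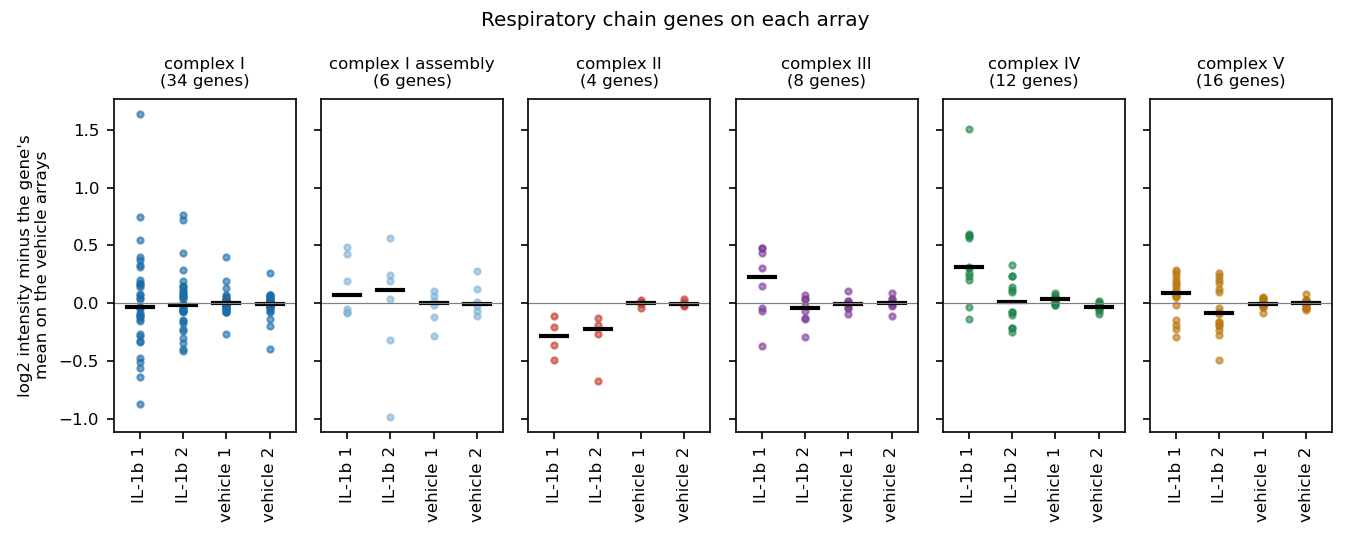
Each point is 1 tested gene on 1 array, as log2 intensity minus that gene's mean over the 2 vehicle arrays (vertical axis), by complex; black bars are medians. The vehicle points of a gene mirror each other around 0 by construction, the 4 complex II genes lie below 0 on both IL-1b arrays, and the complex IV median is 0.31 on the first IL-1b array and 0.01 on the second.

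Complex II, succinate dehydrogenase, belongs to both the respiratory chain and the citric acid cycle and is the 1 complex with all subunits encoded in the nucleus. All 4 subunit genes read lower on both IL-1b arrays than on both vehicle arrays, and 0 of the 4 passed the test. Non-overlap in this direction was found for 31.8% of all genes. The median change was -0.32, against -0.01 over all genes.

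Sdha, the flavoprotein that oxidises succinate, read 1215 and 1423 in IL-1b samples, against 1722 and 1692 in vehicle samples (log2 -0.38 ± 0.15, interval -0.72 to -0.03, limma adjusted p = 0.16). Sdhb, the iron-sulphur subunit, read 1714 and 1936 in IL-1b samples, against 2187 and 2213 in vehicle samples (log2 -0.27, interval -0.61 to 0.07, limma adjusted p = 0.28). Sdhc, a membrane anchor, read 1905 and 1284 in IL-1b samples, against 2087 and 2012 in vehicle samples (log2 -0.39, interval -0.87 to 0.09, limma adjusted p = 0.27). Of these, Sdhc differed most between the IL-1b arrays, with replicate 2 the lower. Sdhd, the other anchor, read 1157 and 1219 in IL-1b samples, against 1297 and 1368 in vehicle samples (log2 -0.17, interval -0.49 to 0.16, limma adjusted p = 0.48). A second, dimmer probe set of Sdhd did not repeat this direction, with 506 and 687.5 in IL-1b samples, against 583 and 560.3 in vehicle samples (log2 0.05, limma adjusted p = 0.90).

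With 1 IL-1b array left out, 2 of the 4 genes passed the test in either fit, where 32.9% of all genes did without replicate 1 and 49.96% without replicate 2. Sdha did so without either one (limma adjusted p = 0.033 without replicate 1 and 0.00013 without replicate 2), Sdhb without replicate 2 (adjusted p = 0.0015) and Sdhc without replicate 1 (adjusted p = 2.2e-07), and Sdhd in neither case. The change of Sdhc was -0.67 without replicate 1 and -0.11 without replicate 2. The median over the 4 genes was -0.28 on the first IL-1b array and -0.22 on the second, relative to the vehicle mean. Relative to all genes, the complex II median lay between -0.38 and -0.22 in the 10 alternative settings that can move it, and was the lowest of the complexes in each. The promoter window of Sdha (chr1:30764303-30764602, plus strand, GRCr8) is shown since it holds 3 matches to the NRF1-type motif, in capitals.
Sdha: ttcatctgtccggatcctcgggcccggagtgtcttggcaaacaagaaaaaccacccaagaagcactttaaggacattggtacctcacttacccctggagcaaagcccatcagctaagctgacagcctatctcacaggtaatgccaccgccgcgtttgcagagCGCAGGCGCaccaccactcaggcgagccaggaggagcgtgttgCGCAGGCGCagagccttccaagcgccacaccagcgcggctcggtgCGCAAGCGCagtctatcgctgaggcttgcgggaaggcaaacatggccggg

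Complex III, the cytochrome bc1 complex, had 8 tested genes with 0 calls and a median change of 0.08, where 15.3% of all genes and 21.9% of the bright genes were called. Every interval stayed within 2-fold, as it did for 49% of all genes and 71.6% of the bright genes. Cyc1, which encodes cytochrome c1, read 1999 and 1769 in IL-1b samples, against 1788 and 1809 in vehicle samples (log2 0.06, interval -0.27 to 0.40, limma adjusted p = 0.81). Uqcrfs1, the Rieske iron-sulphur protein, read 3420 and 3608 in IL-1b samples, against 3551 and 3470 in vehicle samples (log2 0.00, interval -0.35 to 0.35). For both catalytic subunits the groups overlapped. Uqcr10, the brightest of the complex, read 5301 and 3926 in IL-1b samples, against 4180 and 4401 in vehicle samples, with IL-1b replicate 1 highest and replicate 2 lowest (log2 0.09, limma adjusted p = 0.80, and -0.13 without replicate 1).

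The core proteins Uqcrc1 and Uqcrc2, named after their values were seen, had estimates of opposite sign and neither passed the test. Uqcrc1 read 2590 and 1904 in IL-1b samples, against 1853 and 1860 in vehicle samples (log2 0.26, interval -0.17 to 0.69, limma adjusted p = 0.41), and its change was 0.037 without IL-1b replicate 1. Uqcrc2 read 2358 and 2485 in IL-1b samples, against 2964 and 3123 in vehicle samples (log2 -0.33, interval -0.67 to 0.01, limma adjusted p = 0.19), and its second probe set gave -0.30. The difference between these 2 genes was not tested.

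Complex IV, cytochrome c oxidase, had 12 tested genes, which are 11 subunits in general use and the pseudogene Cox6c-ps1, with 0 calls. The median change was 0.22, and 0.28 over the 11 subunits, of which 9 were above 0. Under median centring the median was 0.011 for the complex and -0.21 for all genes, so relative to all genes it stayed at 0.22. The IL-1b arrays lay wholly above the vehicle arrays for 6 of the 12 and wholly below for 1, where 29.4% and 31.8% of all genes did so. The size of the reported median rested on IL-1b replicate 1. All 12 genes read higher on IL-1b replicate 1 than on replicate 2, where 4926 of all 10000 genes did, and the median was 0.31 on replicate 1 and 0.01 on replicate 2. Whether this array's scaling or labelling had a part was not tested.

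Cox4i1, which encodes the largest nuclear subunit, read 9795 and 6844 in IL-1b samples, against 7933 and 7898 in vehicle samples. The IL-1b values lay on either side of the vehicle values, and the change was 0.05 ± 0.22 (interval -0.47 to 0.57, limma adjusted p = 0.91). Without IL-1b replicate 1 it was -0.21. Cox5b, a zinc-binding subunit, read 3557 and 2966 in IL-1b samples, against 2435 and 2268 in vehicle samples (log2 0.47 ± 0.16, interval 0.09 to 0.84, limma adjusted p = 0.11). Its change was 0.33 without IL-1b replicate 1. Cox5a read 484 and 158 in IL-1b samples, against 168 and 166 in vehicle samples. Its estimate of 0.71 came from IL-1b replicate 1 alone, was -0.08 without that array, and had an interval of -0.41 to 1.84 (limma adjusted p = 0.38).

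The small membrane subunits Cox8a, Cox7b and Cox6a1 had both IL-1b values above both vehicle values and did not pass the test. Cox7b, like Cox5a, Cox5b and Cox6b1, is named after its values were seen. Cox8a read 5376 and 4194 in IL-1b samples, against 3672 and 3458 in vehicle samples (log2 0.41, interval -0.01 to 0.84, limma adjusted p = 0.19). Cox7b read 5659 and 4175 in IL-1b samples, against 3960 and 3596 in vehicle samples (log2 0.36, limma adjusted p = 0.28). Cox6a1 read 5243 and 3825 in IL-1b samples, against 3619 and 3465 in vehicle samples (log2 0.34, limma adjusted p = 0.31). In each of these IL-1b replicate 2 was the nearer to the vehicle arrays, and without replicate 1 the change was 0.23 for Cox8a, 0.15 for Cox7b and 0.11 for Cox6a1. Cox6b1, which faces the intermembrane space, read 3402 and 3219 in IL-1b samples, against 2799 and 2659 in vehicle samples (log2 0.28, limma adjusted p = 0.27). Its change was 0.24 without IL-1b replicate 1. Ndufa4, named for complex I but now known as a subunit of complex IV, read 5797 and 4580 in IL-1b samples, against 4872 and 4773 in vehicle samples, and its groups overlapped (log2 0.10, limma adjusted p = 0.77, and -0.074 without IL-1b replicate 1).

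Several complex IV subunits have a second isoform used in particular tissues, such as Cox6a2, Cox7a1 and Cox8b in heart and skeletal muscle, Cox4i2 in lung, and Cox6b2 in testis. All 7 such genes were too dim to test under either condition. Cox4i2 read 7.72 and 5.72 in IL-1b samples, against 7.0 and 29.7 in vehicle samples. Cox6a2 read 25.7 and 22.0 in IL-1b samples, against 5.46 and 17.2 in vehicle samples. Cox7a1 read 50.5 and 27.8 in IL-1b samples, against 13.1 and 20.0 in vehicle samples. Each of these was above background on 1 of the 4 arrays. Cox8b read 41.2 and 20.6 in IL-1b samples, against 5.40 and 7.50 in vehicle samples, and was above background on IL-1b replicate 2 only. Ndufa4l2, an isoform of Ndufa4 known as a target of hypoxia-inducible factor, read 16.2 and 34.8 in IL-1b samples, against 5.94 and 40.5 in vehicle samples, and exceeded background on replicate 2 of each group. Cox7b2 read 5.96 and 13.2 in IL-1b samples, against 30.9 and 3.82 in vehicle samples, above background on 1 array. Cox6b2 was below background on all arrays, with 34.4 and 2.31 in IL-1b samples, against 1.67 and 3.30 in vehicle samples. No isoform was above background on both arrays of a group, so no fold is given, and no switch to one of these isoforms was detectable at this signal.

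**Figure D4:**
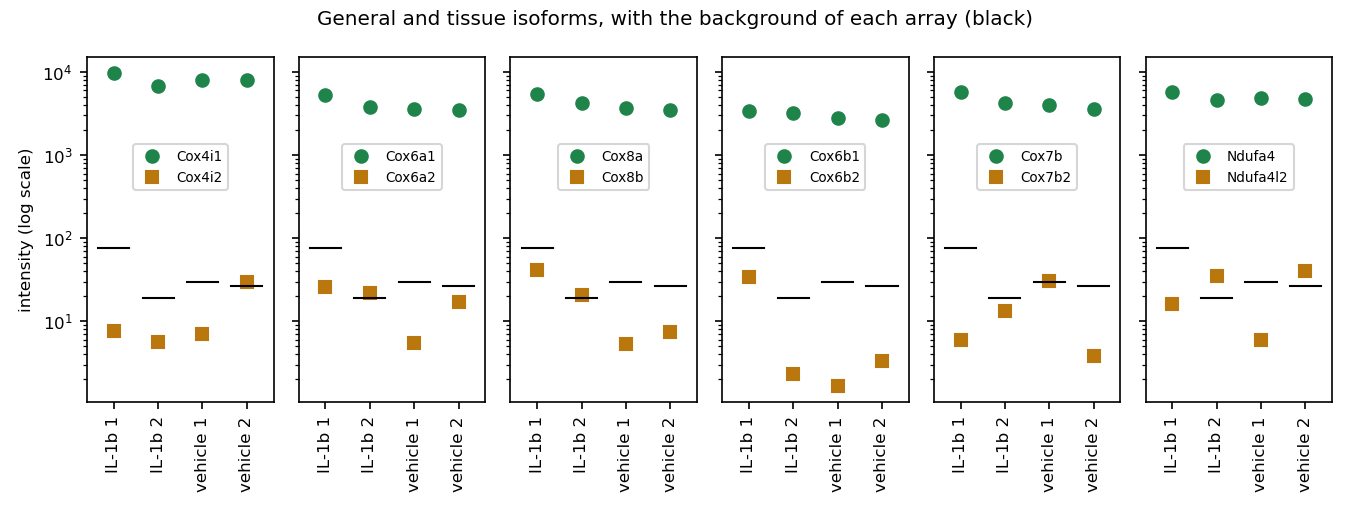
Intensity (log scale, vertical axis) of general complex IV subunits (green circles) and their second isoforms (brown squares) on each of the 2 IL-1b and 2 vehicle arrays, with each array's background as a black line. Only the same symbol across arrays can be compared; most values of the second isoforms lie below background, which is 76.7 on the first IL-1b array and 18.8 on the second.

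The promoter window of Cox4i1 (chr19:65630133-65630432, plus strand, GRCr8) is shown since it holds 2 matches to CCGGAAG, the core that ETS factors such as GABP are known to bind, in capitals as their reverse complement.
Cox4i1: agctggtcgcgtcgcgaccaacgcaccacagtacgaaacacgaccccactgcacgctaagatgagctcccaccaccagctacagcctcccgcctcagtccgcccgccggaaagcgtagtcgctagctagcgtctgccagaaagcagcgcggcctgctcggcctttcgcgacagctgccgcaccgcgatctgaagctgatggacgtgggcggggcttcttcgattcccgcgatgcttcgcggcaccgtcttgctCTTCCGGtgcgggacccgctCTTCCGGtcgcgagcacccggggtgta

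Complex V, the ATP synthase, had 16 tested genes with 0 calls, where 15.3% of all genes and 21.9% of the bright genes were called. The median change of the 16 was 0.01, the range was -0.34 to 0.25, and every interval stayed within 2-fold. Intervals did so for 49% of all genes and 71.6% of the bright genes. By part of the enzyme, the median was -0.03 over 5 genes of the F1 part, 0.11 over 4 genes of the peripheral stalk and -0.05 over 6 genes of the membrane part. Atp5f1b, the catalytic beta subunit and the brightest of the complex, read 6355 and 5056 in IL-1b samples, against 5573 and 5762 in vehicle samples. The IL-1b values enclosed the vehicle values (log2 0.00, interval -0.43 to 0.43).

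In complex V the IL-1b arrays lay wholly above the vehicle arrays for 6 of the 16 genes and wholly below for 4, where 29.4% and 31.8% of all genes did so. The extremes of the complex, named after their values were seen, were among these and had no call. Atp5f1c, the central gamma subunit, read 3579 and 2903 in IL-1b samples, against 4001 and 4157 in vehicle samples (log2 -0.34, interval -0.73 to 0.06, limma adjusted p = 0.25). Atp5f1a, the alpha subunit, read 2784 and 3064 in IL-1b samples, against 3411 and 3423 in vehicle samples (log2 -0.23, limma adjusted p = 0.37). On the other side of 0, Atp5f1d, the delta subunit of the F1 part, read 2277 and 2305 in IL-1b samples, against 1973 and 1871 in vehicle samples (log2 0.25, limma adjusted p = 0.29). Atp5pf, which encodes coupling factor 6 of the stalk, read 3179 and 3105 in IL-1b samples, against 2633 and 2633 in vehicle samples (log2 0.25, limma adjusted p = 0.30). Atp5if1, an inhibitor that stops the enzyme from hydrolysing ATP, read 1252 and 1390 in IL-1b samples, against 1199 and 1211 in vehicle samples (log2 0.13, limma adjusted p = 0.59). Its 2 dimmer probe sets gave -0.11 and 0.67, neither past the test.

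In all, 7 member genes had more than 1 tested probe set, and in 3 of them (Atp5if1, Atp5me and Sdhd) the probe sets had opposite signs, none past the test. Whether probe sets also read transcripts of processed pseudogenes, which are common for these genes, was not tested.

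The order of the complexes was compared under each processing setting, relative to the median of all genes. No setting of the prior, the replicate block or median centring can move a median on this scale, so 4 of the 14 alternatives repeat the reported values and say nothing about the order. In the other 10, complex II was lowest in all 10 and complex IV highest in 9. Complex IV was at 0.22 as reported, 0.18 after quantile normalization and 0.32 without IL-1b replicate 2, but at 0.02 without IL-1b replicate 1. Median centring moved the median of all genes to -0.21, and with it 64 of the 80 members were below 0.

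**Figure D5:**
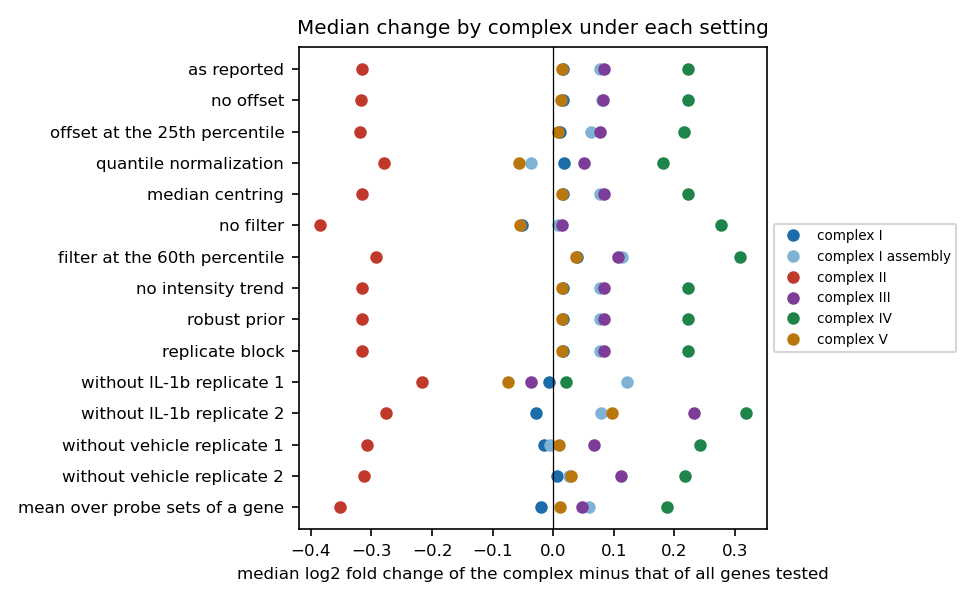
Median log2 fold change of each complex minus the median of all genes tested (horizontal axis), for the values as reported and for 14 alternative settings (rows), of which 4 cannot move these values. Complex II (red) lies between -0.38 and -0.22, and complex IV (green) moves to 0.02 when IL-1b replicate 1 is left out.

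Promoter windows were available for 78 of the 87 genes. The NRF1-type motif GCGCNTGCG (reverse complement CGCANGCGC) was found in 20 of the 78 (25.6%), against 8.25% of 19005 protein-coding genes. The ETS core CCGGAAG (reverse complement CTTCCGG) was found in 22 (28.2%), against 11.6% of protein-coding genes, and 3 genes held both motifs. The NF-kB-type motif GGGANNTTC (reverse complement GAANNTCCC) was in 4 of the 78 windows (5.13%), close to the 4.33% of protein-coding genes. The tested members with an NRF1-type match had a median change of 0.03 (20 genes, -0.48 to 0.66), and those without one had 0.04 (52 genes). The members with an ETS core had a median of -0.00 (22 genes, 11 above 0 and 11 below), and those without had 0.05 (50 genes). A match is a description of these letters and not evidence of binding. The protein-coding genes were not matched to the members for expression or base composition. Whether the higher shares are particular to respiratory chain genes was not tested.

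Genes that feed or build the chain were examined in 8 lists. The citric acid cycle and pyruvate dehydrogenase list had 20 tested genes, of which 0 were higher, 3 lower and 17 not past the test, with a median of -0.19. In this list and those that follow, counts stand against 15.3% of all genes called (7.19% higher and 8.13% lower), and 3 of 20 is about that share. Idh2, the mitochondrial NADP-dependent isocitrate dehydrogenase, read 751 and 618 in IL-1b samples, against 1806 and 1863 in vehicle samples (log2 -1.42 ± 0.15, limma adjusted p = 0.0015), and it passed the test in every setting tried. The other 2 act on pyruvate dehydrogenase in opposite ways. Pdk3, a kinase that switches it off, fell by 1.35 on the log2 scale (limma adjusted p = 0.012), and Pdp1, a phosphatase that switches it on, fell by 0.82 (adjusted p = 0.013).

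Factors that assemble the complexes were mostly not past the test. Among 13 factors for complexes II, III and V, 1 was higher, 1 lower and 11 not past the test (median -0.10), and both called genes serve complex II. Sdhaf1, which helps to put iron-sulphur clusters into Sdhb, read 1235 and 1275 in IL-1b samples, against 709 and 726 in vehicle samples (log2 0.80, limma adjusted p = 0.010). Sdhaf4, which acts on Sdha, read 200.1 and 322 in IL-1b samples, against 496.5 and 495 in vehicle samples (log2 -0.95, limma adjusted p = 0.049). Among 22 complex IV factors, 1 was lower (Higd1a, log2 -0.76, limma adjusted p = 0.012), 0 were higher and 21 did not pass (median -0.05). Among 11 complex I factors outside the Nduf names, 0 passed in either direction (median -0.14).

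Regulators of respiratory gene transcription had 16 tested genes, with 2 higher, 0 lower and 14 not past the test (median 0.23), close to the 15.3% of all genes called. Esrra, the nuclear receptor ERR alpha, read 346 and 369 in IL-1b samples, against 109 and 158 in vehicle samples (log2 1.40 ± 0.25, limma adjusted p = 0.012). Nfe2l2, the regulator of oxidative stress genes, was higher by 0.85 (limma adjusted p = 0.0085). Tfam, which packages and transcribes mitochondrial DNA, had a change of 0.36 (limma adjusted p = 0.21), Gabpa of 0.50 (0.36) and Nrf1 of 0.28 (0.69), none past the test. The probe sets of Ppargc1a and Ppargc1b, the coactivators PGC-1 alpha and beta, were too dim to test.

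Carriers, pores and uncouplers had 13 tested genes, with 1 higher, 1 lower and 11 not past the test (median 0.04), again close to the 15.3% of all genes. Slc25a10, the dicarboxylate carrier, was higher by 1.18 (limma adjusted p = 0.029), and Ak3, a matrix adenylate kinase, fell by 0.98 (adjusted p = 0.0062). Ucp2, an uncoupling protein homologue, did not pass the test (log2 -0.69, limma adjusted p = 0.067). Coenzyme Q synthesis and other electron donors had 18 tested genes, with 2 higher, 0 lower and 16 not past the test (median -0.10), against 15.3% of all genes called. Gpd2, which passes electrons from cytosolic glycerol 3-phosphate to coenzyme Q, read 201 and 266 in IL-1b samples, against 77.7 and 45.2 in vehicle samples (log2 1.87, limma adjusted p = 0.017). Coq8b, of coenzyme Q synthesis, was higher by 1.03 (limma adjusted p = 0.049).

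The 73 mitochondrial ribosomal protein genes had 2 higher, 2 lower and 69 not past the test, with a median of -0.04, against 15.3% of all genes called. Mrps6 fell by 0.88 (limma adjusted p = 0.021) and Mrpl18 by 0.82 (adjusted p = 0.025). Mrps18b was higher by 0.66 (limma adjusted p = 0.043) and Mrpl23, named after its value was seen, by 0.58 (adjusted p = 0.042). Of the 16 called genes named in these lists, Idh2 alone kept its call in every setting tried, and the other 15 lost it without the intensity trend. Leaving out vehicle replicate 1 ended 13 of the 16 calls (limma adjusted p of 0.058 to 0.46, with Ak3, Gpd2 and Idh2 kept). Leaving out vehicle replicate 2 ended the calls of all but Esrra and Idh2. Fits without an IL-1b array take their spread from the vehicle pair alone, which lay closer together. They therefore cannot show whether these calls depend on 1 IL-1b array.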

How the data were processed

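Biotin-labelled RNA of 4 samples, 2 with IL-1b and 2 with vehicle, was read on 1-colour Affymetrix arrays (per the labels' protocols). The authors deposited linear intensities per probe set, which MAS5 produced according to the submitters' processing notes, with no version or settings given in the sources used here. Each array had a trimmed mean of 250.1 (2% left out at either end), so no scaling was added. MAS5 scaling fixes only an array's general level.

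From the deposited intensities, log2(intensity + 5.49) was computed, the offset being the 10th percentile of all values. After 57 control probe sets were dropped, the 18625 probe sets with a mean log2 value of at least 5.37 (the 40th percentile) entered a limma fit (version 3.58.1, R 4.3.3; lmFit, eBayes with an intensity trend, 2 residual and 4.91 prior degrees of freedom). P-values were adjusted by Benjamini-Hochberg over all 18625, with 0.05 as the threshold. Symbols came from the platform annotation (20826 probe sets with 1 symbol, 436 with several, 9780 not listed). A gene is its brightest tested probe set with 1 symbol. Background is the 95th percentile of 27 bacterial control probe sets on that array; with 2 arrays a group, precision is limited by their number.

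The members, lists and tests were chosen with earlier results of these data known. The naming rule took members past the threshold (up to 6 per complex and direction), each complex's brightest member, Sdha to Sdhd, Cyc1, Cycs, Uqcrfs1, isoform pairs and Atp5if1, up to 3 called genes of each other list, and 7 regulators or uncouplers. A further 20 genes were named after their values were seen, and the motifs and the comparison with bright genes were also chosen then; motif forms 1 letter longer were tried first and matched fewer windows. Alternatives were other offsets, scalings, filters and priors, a replicate block, leaving out each array, the mean over probe sets, a fold of at least 1.5, and subunits only. Deviations of same-numbered arrays correlated at 0.091 with 2 pairs, which does not pair the samples. The procedure was tested on simulated data.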

Additional observations from a re-analysis of the deposited data

How the results depend on the processing

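With 2 arrays a group, calls near the threshold depended on how the spread was set, while the medians by complex depended on scaling and on IL-1b replicate 1. A fit with 1 array in a group took its spread from the other group. The count of probe sets called was 2503 as reported, 1634 under median centring, 963 without the intensity trend, and 1357 to 8666 when each array was left out in turn. Members called higher numbered 1 as reported, 2 after quantile normalization, 0 under median centring, 0 without the intensity trend, 0 with a robust prior, and 0 to 26 with an array left out. Members called lower numbered 1 after quantile normalization and 0 to 16 with an array left out. The count stayed at 1 higher and 0 lower with a fold of at least 1.5 or with subunits only. With the replicate number as a replicate block, 2 members were higher (Ndufa5, adjusted p = 0.026, and Ndufb8, adjusted p = 0.016) and 19.3% of all genes were called; the samples share only a number.

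Under median centring the median change was -0.18 over all members, -0.20 for complex I, -0.13 for complex I assembly factors, -0.53 for complex II, -0.13 for complex III, 0.011 for complex IV and -0.20 for complex V. All genes moved to -0.21, because this setting shifts the change of every gene by the same amount. The median intensity was 89.6 on IL-1b replicate 1, against 61.3 to 66.4 on the other arrays. After quantile normalization it was -0.0057 for complex I and -0.060 for the assembly factors. With each array left out in turn it ranged from -0.045 to 0.067 over all members, -0.033 to -0.0076 for complex I, -0.020 to 0.12 for the assembly factors, -0.33 to -0.22 for complex II, -0.043 to 0.23 for complex III, 0.013 to 0.31 for complex IV and -0.082 to 0.091 for complex V. Cox4i1 reversed to -0.21 without IL-1b replicate 1, and the cause was not tested. Dim isoforms near background cannot be compared between groups.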
